A study of Homo sapiens with 32 samples.

Results

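The Cas9 empty vector (e.v.) line of Caco-2 cells was compared with unedited (WT) Caco-2 cells in standard 2D culture in wells. The libraries were chosen by their labels alone, as every library with genotype e.v. (3 libraries, numbered 23, 26 and 32) or WT (4 libraries, numbered 5, 8, 12 and 27) and with the treatment 2D, which made 7 of the 32 libraries of the series. Caco-2 is a human colon adenocarcinoma line that forms an epithelium with features of small-intestinal enterocytes. The e.v. cells carried a lentiviral inducible Cas9, selected with neomycin, and a lentiviral guide vector without a guide sequence, selected with puromycin, and they served as the edited-line control beside cl.21, 1 clone lacking functional HIF1A. WT cells carried neither vector and had not been through either selection, so Cas9, both vectors and both selections differed between the groups together and cannot be told apart. The sources used here do not say whether the e.v. line was a clone or whether Cas9 was induced. The remaining libraries came largely from HoxBan, a system in which the epithelium is cultured above an agar layer without bacteria (monoculture) or with *Faecalibacterium prausnitzii* (co-culture), and 12 of them (e.v. and WT, both HoxBan cultures) are used below because they share no library with the comparison in wells.

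Messenger RNA was measured by sequencing tags from transcript 3' ends, and levels are given as CPM, the counts relative to a common library total of 1e6 after correction for composition. The 7 libraries held 4583636 to 5779808 counts. The share of counts in genes of the mitochondrial genome was 5.58% to 5.79% in e.v. libraries 23 and 32 but 17.1% in e.v. library 26, and 4.94% to 6.30% in WT libraries 5, 8 and 27 but 14.1% in WT library 12. These 2 libraries, one in each group, stood apart from the rest, and counts of genes are therefore also given without them. The epithelial markers EPCAM and CDX2 were present in all 7 libraries, at 1187 to 1514 CPM and 123 to 224 CPM. Of 14 listed Caco-2 and colon epithelium markers, 1 to 3 had no count in a given library. The 11 that could be tested had log2 fold changes from -2.62 to 0.37, and 0 passed the test used below. Several defining markers of other cells were absent, and other members of the same lists were present: the goblet cell mucin MUC2, the T helper marker CD4 and the endothelial receptor KDR had no count in any of the 7, while 6 of 18 listed immune markers were detected well enough to be tested. The summed level of the immune list was 41.8 to 59.3 CPM in e.v. and 24.5 to 44.1 CPM in WT, and that of the fibroblast and endothelial list was 62.2 to 125 CPM in e.v. and 42.4 to 101 CPM in WT. The goblet, Paneth, enteroendocrine and tuft cell list, which also holds LYZ, summed to 53.1 to 68.5 CPM in e.v. and 27.5 to 35.9 CPM in WT. The part of these cells in the results was not tested. LYZ, which epithelial cells also make, accounted for 25.2 to 42.0 CPM of the immune sum in e.v. and 6.37 to 14.5 CPM in WT, and the pan-leukocyte marker PTPRC stayed under 0.2 CPM in all 7 libraries. The labels do not state whether a group's libraries were grown as separate cultures, and the p-values below therefore measure the spread between libraries only. For the tests of single genes that spread was pooled over 28 libraries in 9 groups, of which these 7 libraries were a part. In bulk RNA, fewer cells that use a gene and less RNA per cell cannot be told apart.

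Type I and type III interferons bind receptors that signal through JAK kinases to a complex of transcription factors, which binds a short DNA element, the interferon-stimulated response element, in front of interferon-stimulated genes. The products of these genes detect viral RNA (IFIH1, the OAS enzymes), block viral entry or replication (IFITM3, MX1, BST2) or modify proteins (ISG15), and many epithelial cells keep a low level of them without infection. Hypoxia-inducible factor 1 (HIF1) is controlled mainly through its protein: prolyl hydroxylases (EGLN1 to EGLN3) mark HIF1A for VHL-dependent degradation when oxygen is present, and HIF1 raises glucose transport and glycolysis when it is not.

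The element is shown first, because it lies before many of the genes of the list with the most members that rose. It was searched as GAAA, 2 bases of any kind and GAAA on either strand, in the 250 bases before each start in RefSeq (GRCh38.p14), and capitals mark the matches in the stretches below, which read 5' to 3' in the direction of the gene.
ISG15, a ubiquitin-like modifier (chr1:1013360-1013423, plus strand): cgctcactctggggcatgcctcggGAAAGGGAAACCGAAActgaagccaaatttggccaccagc
IFI6, an interferon-induced mitochondrial protein (chr1:27672252-27672331, minus strand): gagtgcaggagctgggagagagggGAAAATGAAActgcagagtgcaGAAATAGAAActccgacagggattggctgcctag
IFI27, an interferon-induced membrane protein (chr14:94110604-94110674, plus strand): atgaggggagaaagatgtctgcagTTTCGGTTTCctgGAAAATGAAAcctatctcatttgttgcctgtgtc
IFIH1, the RNA sensor MDA5 (chr2:162318685-162318729, minus strand): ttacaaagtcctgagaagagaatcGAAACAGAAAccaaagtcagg
IFITM3, which blocks viral entry (chr11:320862-320936, minus strand): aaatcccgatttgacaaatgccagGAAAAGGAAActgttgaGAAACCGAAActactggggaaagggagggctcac
BST2, which tethers virus particles (chr19:17405721-17405784, minus strand): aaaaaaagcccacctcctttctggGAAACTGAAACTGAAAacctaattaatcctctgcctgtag

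Of the 16 interferon-stimulated genes that were higher in e.v. than in WT, 15 had a promoter in the table and 9 of these (60%) held the element in at least 1 promoter. Of the 27305 genes with a promoter in the table, 3.71% held it, and of the 70 other genes that were higher and had a promoter, 2 (2.86%) held it. One of these 2 was IFIH1, shown above and listed here with the nucleic acid sensors. Of all 44 listed interferon-stimulated genes with a promoter, called or not, 28 (63.6%) held the element, a share like that of the members that rose. By single promoters the share was 3.02% of 35116. OAS1, SP110, HERC6, SP100, DTX3L and EIF2AK2, which were also higher, held no match in these windows. A match is a description of these letters, and binding was not measured.

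In well culture, 164 of 12849 tested genes (1.28%) differed between e.v. and WT at an adjusted p under 0.05 by edgeR's quasi-likelihood test with Benjamini-Hochberg adjustment. More were higher in e.v. (104, 0.809%) than lower (60, 0.467%). The number of genes changed strongly when libraries were left out. Each such fit also has fewer libraries in a group, and the part of that in the loss was not tested. Without e.v. library 26, 28 were higher and 13 lower, without e.v. library 23, 59 and 10, without e.v. library 32, 52 and 10, and without e.v. library 26 and WT library 12 together, 15 and 9. Without WT library 12, 46 were higher and 25 lower, without WT library 27, 47 and 32, and without WT library 5, 66 and 26. Without WT library 8, 70 were higher and 69 lower. Of the 164, 30 passed without each of the 7 libraries in turn (23 higher and 7 lower). In 161 of the 164, all e.v. libraries lay on one side of all WT libraries (102 of the higher and 59 of the lower genes). That separation was shown by 15.3% of all tested genes, with e.v. higher in 7.76% and lower in 7.56%. Absolute log2 fold changes had a median of 1.33 among the higher and 1.44 among the lower genes, and all but 4 of the 164 were protein coding.

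ANKRD55, an ankyrin repeat protein of little-known function at chromosome 5, 56099678 to 56233359 (GRCh38, minus strand), set the e.v. line apart more than any other tested gene by adjusted p. It measured 65.3, 77.2 and 68.9 CPM in the e.v. libraries and 0.186, 0, 0.185 and 0 CPM in the WT libraries. The groups did not come near each other, and the 4 WT libraries together held 2 counts against 1232 in e.v. The ratio of the counts was 789.7, with an exact 95% interval of 218.1 to 6528 that covers counting error only (adjusted p = 3.22e-14). ANKRD55 was also near 0 in the 3 cl.21 libraries in wells (0 to 0.154 CPM), and the cause of its level in e.v. was not tested. In HoxBan the e.v. libraries measured 111 to 167 CPM and the WT libraries 0 to 0.231 CPM. Of the 12 other tested genes within 1 Mb, the log2 fold changes ran from -0.11 to 2.24 and 1 was called. That 1 was GPX8, a peroxidase of the endoplasmic reticulum at 55160118 to 55167071 on the plus strand. GPX8 measured 10.0, 8.83 and 8.88 CPM in e.v. and 2.05, 1.90, 1.67 and 2.12 CPM in WT (log2 fold change 2.24 ± 0.26 SE, adjusted p = 1.14e-05), and 4.12 to 6.48 CPM in cl.21.

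ROBO1, a receptor for the guidance cue SLIT, measured 11.9, 9.33 and 9.05 CPM in e.v. and 0.744, 0.949, 1.48 and 0.193 CPM in WT (log2 fold change 3.53 ± 0.43 SE, adjusted p = 2.62e-05). PCDH7, a protocadherin of cell-cell adhesion, measured 34.1, 44.8 and 25.1 CPM in e.v. and 8.93, 6.64, 6.85 and 3.67 CPM in WT (2.40 ± 0.31, adjusted p = 5.88e-05). In both genes every e.v. library lay above every WT library, and the cl.21 libraries (0.617 to 1.53 and 4.01 to 9.61 CPM) overlapped with WT. RYR2, a calcium release channel of the endoplasmic reticulum, measured 9.85, 19.7 and 12.6 CPM in e.v. and 1.12, 0.949, 2.96 and 0.386 CPM in WT (3.36 ± 0.46, adjusted p = 0.000137), and here cl.21 (4.94 to 14.0 CPM) overlapped with e.v. SLC2A2, the basolateral glucose transporter GLUT2 of enterocytes, measured 16.8, 36.7 and 21.1 CPM in e.v. and 2.79, 4.43, 2.04 and 0.965 CPM in WT (3.24 ± 0.51, adjusted p = 0.000753). It was the 1 of 27 tested enterocyte differentiation genes that rose, and the median log2 fold change of that list was -0.36. HS3ST1, a heparan sulfate sulfotransferase, FAM171A1, DRAM1, a lysosomal membrane protein of autophagy, and MBIP rose by 2.49, 2.40, 1.22 and 0.95 on the log2 scale. SLC2A2 and DRAM1 did not pass without e.v. library 26 and WT library 12 (adjusted p = 0.0539 for both), whereas ROBO1, PCDH7, RYR2, HS3ST1, FAM171A1 and MBIP did.

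**Figure D1:**
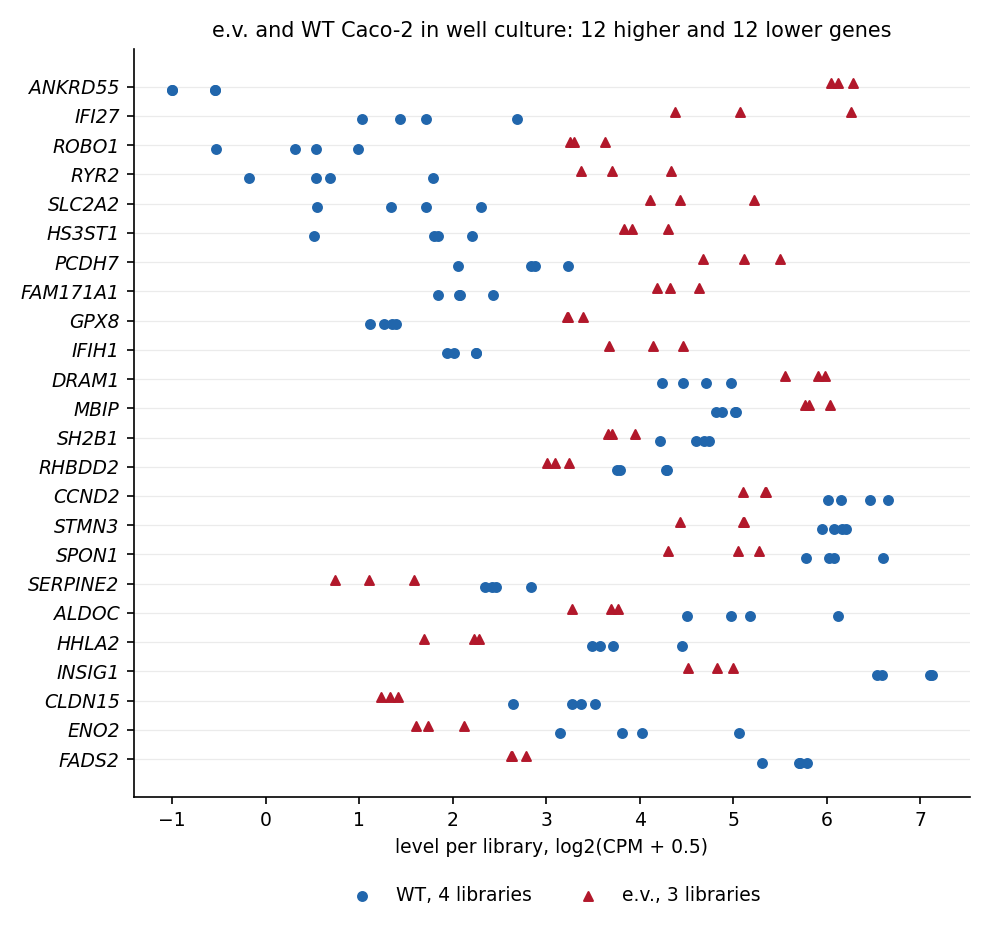
Level in each well-culture library, as log2(CPM + 0.5), of the 12 genes higher and the 12 genes lower in e.v. with the smallest adjusted p, a mean of at least 5 CPM in the higher group and no overlap between groups; triangles are the 3 e.v. libraries and circles the 4 WT libraries. ANKRD55 has the widest gap, and the e.v. and WT symbols of each gene do not overlap.

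Interferon-stimulated genes were the list with the most members that rose. Of 51 listed genes 36 were expressed highly enough to be tested, and 16 of these were higher in e.v. and 0 lower, against 0.809% and 0.467% of all tested genes. The median log2 fold change was 1.04, beside -0.01 over all tested genes, and 33 of the 36 values were above 0. IFI27 measured 20.3, 76.2 and 33.0 CPM in e.v. and 5.95, 2.21, 2.78 and 1.54 CPM in WT (log2 fold change 3.79 ± 0.56 SE, adjusted p = 0.000337). MX1, a GTPase that traps viral nucleocapsids, measured 23.2, 24.0 and 9.38 CPM in e.v. and 1.86, 1.58, 1.11 and 2.12 CPM in WT (3.48 ± 0.61, adjusted p = 0.00281). In both genes the lowest e.v. library lay well above the highest WT library. OAS1, which makes the activator of RNase L, measured 26.8, 28.7 and 21.1 CPM in e.v. and 6.88, 8.70, 6.85 and 8.30 CPM in WT (1.73 ± 0.31, adjusted p = 0.00362). LGALS3BP, a secreted glycoprotein, measured 54.0, 66.3 and 60.2 CPM in e.v. and 32.0, 27.7, 30.9 and 33.8 CPM in WT (0.95 ± 0.17, adjusted p = 0.00316). OAS1 and LGALS3BP were tightly grouped within each line. The remaining 12, named after their values were seen, were ISG15, IFI6, IFITM3, OAS2, OAS3, BST2, SP110, SP100, HERC6, PLSCR1, DTX3L and EIF2AK2, with log2 fold changes from 0.75 (BST2) to 2.87 (IFI6) apart from OAS2. IFITM3 is near-identical to other IFITM genes, so that its counts may be shared with them. OAS2 rested on 36 counts against 1, a ratio of 46.1 (exact 95% interval 7.77 to 1873).

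The rise was largest in e.v. library 26 and its test was sensitive to that library. The summed level of the 51 genes was 1315, 1881 and 1243 CPM in e.v. libraries 23, 26 and 32 and 711 to 886 CPM in the 4 WT libraries. The median over the tested members, relative to the WT mean, was 0.92, 1.28 and 0.79 on the log2 scale in the 3 e.v. libraries and -0.12 to 0.12 in WT. All 3 e.v. libraries were above all 4 WT libraries. Without e.v. library 26, 4 members passed and the median was 0.91, and without e.v. library 26 and WT library 12 together 1 passed (IFI27, adjusted p = 0.0339) and the median was 0.90. Without each other library in turn, 6 to 10 passed.

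**Figure D2:**
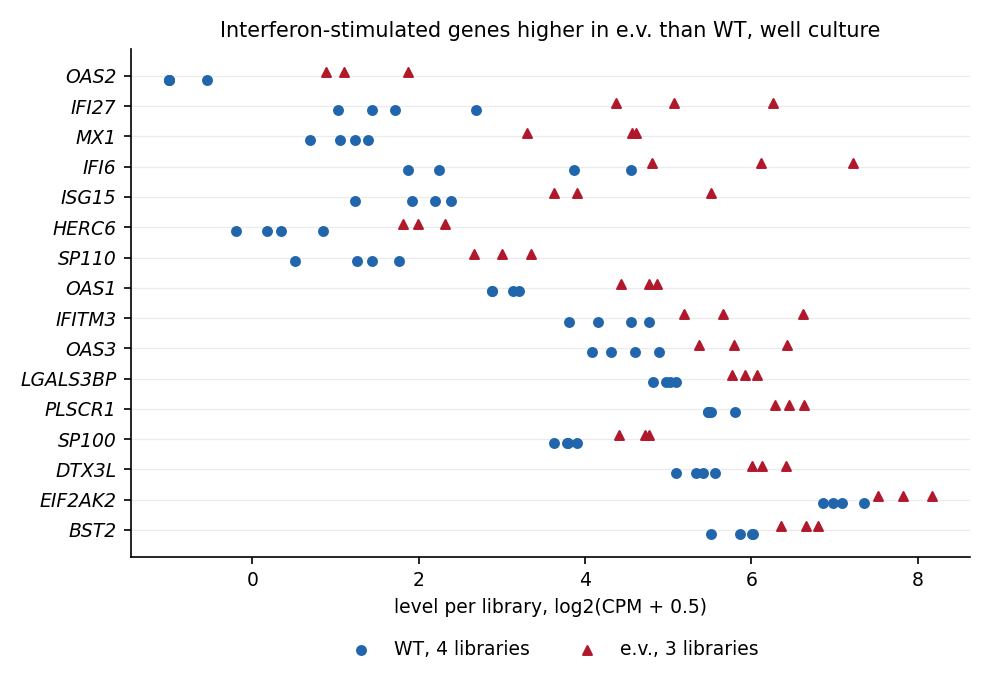
Level in each well-culture library, as log2(CPM + 0.5), of the 16 interferon-stimulated genes higher in e.v.; triangles are the 3 e.v. libraries and circles the 4 WT libraries. The triangles lie to the right of the circles in each gene, and IFI6, with e.v. libraries at 27.6 to 149 CPM, is among the most spread.

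Upstream of these genes lie the interferons, their receptors and the sensors of viral nucleic acid. None of 8 listed interferon genes (IFNB1, IFNA1, IFNE, IFNK, IFNG, IFNL1, IFNL2 and IFNL3) was expressed highly enough to be tested, and none exceeded 0.316 CPM in any of the 7 libraries, so that a difference in interferon transcripts was not detectable at this depth. The 6 receptor chains had log2 fold changes from -0.27 to 0.15 and none passed. Among 9 tested nucleic acid sensors and adaptors IFIH1 rose, at 21.5, 17.2 and 12.2 CPM in e.v. and 3.53, 3.32, 4.26 and 4.25 CPM in WT (log2 fold change 2.14 ± 0.31 SE, adjusted p = 0.000337), and it passed without each library in turn. Its relative RIGI measured 8.21 to 11.3 CPM in e.v. and 3.70 to 5.95 CPM in WT (1.07 ± 0.36, adjusted p = 0.187). None of 6 inhibitors passed. Class I antigen presentation, which interferon also raises, had 0 of 14 tested genes called (4 at an unadjusted p under 0.05, against 11.1% of all tested genes). Its log2 fold changes ran from -0.39 to 1.07, with B2M at -0.01 and HLA-C at -0.09. In HoxBan, 3 of its members were called higher and 0 lower, against 6.09% and 4.9% of all tested genes. None of 20 tested NF-kB target genes passed, against 4 at an unadjusted p under 0.05.

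The gene with the most certain decrease was FADS2, the delta-6 desaturase that starts the synthesis of long polyunsaturated fatty acids, at chromosome 11, 61792980 to 61867354 on the plus strand. It measured 6.39, 5.67 and 5.70 CPM in e.v. and 54.7, 39.2, 51.5 and 52.1 CPM in WT (log2 fold change -3.06 ± 0.20 SE, adjusted p = 1.05e-10). The e.v. libraries were close to each other and far below WT, and cl.21 measured 13.2 to 14.2 CPM. None of the 47 other tested genes within 1 Mb was called, among them FADS1 and FADS3, which sit beside it, at -0.31 and -0.49. INSIG1, which retains the sterol sensor SCAP in the endoplasmic reticulum, at chromosome 7, 155297776 to 155310235 on the plus strand, measured 22.4, 31.5 and 27.8 CPM in e.v. and 137, 96.1, 92.2 and 139 CPM in WT (-2.09 ± 0.27, adjusted p = 6.42e-05). The cl.21 libraries were lower still, at 0.610 to 1.39 CPM. INSIG1 was the 1 of 25 tested cholesterol synthesis genes that changed, and that list had a median log2 fold change of 0.06.

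CCND2, a D-type cyclin, measured 40.1, 39.8 and 33.8 CPM in e.v. and 87.8, 70.8, 101 and 64.1 CPM in WT (log2 fold change -1.09 ± 0.17 SE, adjusted p = 0.000749), while 0 of 35 tested proliferation genes were called (1 at an unadjusted p under 0.05). CLDN15, a claudin that forms paracellular sodium pores in the intestine, measured 2.01, 2.17 and 1.84 CPM in e.v. and 11.0, 9.17, 5.74 and 9.84 CPM in WT (-2.14 ± 0.36, adjusted p = 0.00195). It was the 1 called among the 30 tested members of the junction list. The gap junction gene GJA1, which is outside that list, was also lower, with 2 counts in e.v. and 39 in WT (ratio of WT to e.v. 15.2, exact 95% interval 3.94 to 130, adjusted p = 0.0244). The matrix protein SPON1 and the stathmin family member STMN3 fell by 1.23 and 1.20 on the log2 scale. FADS2, INSIG1, CCND2, CLDN15, SPON1 and STMN3 passed without each library in turn and without e.v. library 26 and WT library 12. SLC22A3, an organic cation transporter, was close to absent from e.v., at 0, 0.333 and 0.168 CPM against 4.09, 1.90, 7.41 and 2.32 CPM in WT. Its counts of 3 in e.v. and 86 in WT gave a ratio of WT to e.v. of 22.4 (exact 95% interval 7.4 to 110.6, adjusted p = 0.0094). SH2B1, HHLA2, an immune checkpoint ligand, and SERPINE2, a protease inhibitor, fell by 0.82, 1.89 and 1.56 on the log2 scale and did not pass without e.v. library 26 and WT library 12 (adjusted p = 0.245, 0.205 and 0.0841).

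A pair of ligands of the epidermal growth factor receptor rose, and a pair of immediate early genes, which growth factors switch on within minutes, fell. EREG (epiregulin) measured 207, 222 and 175 CPM in e.v. and 118, 129, 65.4 and 116 CPM in WT (log2 fold change 0.91 ± 0.19 SE, adjusted p = 0.015), and AREG (amphiregulin) 566, 722 and 524 CPM in e.v. and 494, 395, 293 and 358 CPM in WT (0.65 ± 0.16, adjusted p = 0.0413). They were 2 of 7 tested genes of that family, while 0.809% of all tested genes were called higher. FOS, an AP-1 subunit, measured 1.46, 0.667 and 0.838 CPM in e.v. and 17.7, 2.37, 7.41 and 2.90 CPM in WT (-2.91 ± 0.64, adjusted p = 0.0203). The WT libraries differed more among themselves in FOS than the e.v. libraries did. DUSP6, the phosphatase that removes the activating phosphates from ERK, measured 37.2, 24.2 and 32.7 CPM in e.v. and 115, 36.8, 153 and 57.9 CPM in WT (-1.53 ± 0.35, adjusted p = 0.0243), with WT library 8 inside the range of e.v. Of 24 tested immediate early genes, FOS and DUSP6 were lower and 0 higher (0.467% and 0.809% of all tested genes), and the median log2 fold change was -0.39. All 4 calls were lost without e.v. library 26 and WT library 12 (adjusted p = 0.237 to 0.802), and each was also lost on leaving out certain single libraries. EREG was lost without e.v. library 23 or 26 or WT library 12, AREG without each library except WT library 5, FOS without WT library 5 or any e.v. library, and DUSP6 without WT library 5 or 12 or any e.v. library.

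In several further lists 1 member was called. TFPI, the inhibitor of the tissue factor pathway, measured 30.3, 48.8 and 34.9 CPM in e.v. and 10.0, 5.69, 19.8 and 4.44 CPM in WT (log2 fold change 1.93 ± 0.33 SE, adjusted p = 0.00185). It was the 1 called among the 20 tested members of the plasma protein and coagulation list. The plasma protein gene APOH, outside that list, was also higher (0.79, adjusted p = 0.0176). CD44, a hyaluronan receptor and Wnt target, measured 20.1, 24.8 and 23.5 CPM in e.v. and 6.33, 5.85, 11.3 and 9.26 CPM in WT (1.48 ± 0.28, adjusted p = 0.00585), the 1 of 17 tested Wnt targets called. The Wnt list had a median log2 fold change of 0.62, and in 9 of the 17 all e.v. libraries lay above all WT libraries, as in 7.76% of all tested genes. The Wnt median was 0.43 to 0.67 without each library in turn and 0.27 without e.v. library 26 and WT library 12 together. LYZ, the lysozyme of Paneth cells and macrophages, measured 25.2, 42.0 and 34.0 CPM in e.v. and 14.5, 9.33, 10.6 and 6.37 CPM in WT (1.73 ± 0.33, adjusted p = 0.00653), while the Paneth defensin DEFA5 had no count in any of the 7 libraries. ACAA2, an enzyme of mitochondrial fatty acid oxidation, rose by 0.64 on the log2 scale (adjusted p = 0.0441), and the imprinted gene PHLDA2 fell by 0.99 (adjusted p = 0.0383), each the 1 member of its list called (of 23 and 10 tested). DECR1, an enzyme of the same oxidation that is outside the list, also rose by 0.64 (adjusted p = 0.0441). TFPI and CD44 passed without each library in turn, LYZ was lost without e.v. library 26, PHLDA2 without WT library 5 or 12 or any e.v. library, and ACAA2 without each library except WT library 8. No member was called in the lists of p53 targets (20 tested), NRF2 targets (22), the integrated stress and unfolded protein responses (24), drug export transporters (10) and nuclear-encoded oxidative phosphorylation genes (38), with 3, 0, 1, 1 and 4 members at an unadjusted p under 0.05, which 11.1% of all tested genes reached.

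The study's subject was HIF1 and IL-18. In wells, 2 listed HIF1 targets and 2 glycolysis genes were called lower in e.v., and none was called without WT library 5 or without any 1 of the e.v. libraries. HIF1A itself measured 155, 180.1 and 148 CPM in e.v. and 131, 167, 144 and 142 CPM in WT (log2 fold change 0.14 ± 0.17 SE, adjusted p = 0.865). The HIF1 score, HIF1A over the sum of its 5 negative regulators EGLN1, EGLN2, EGLN3, VHL and HIF1AN, was 0.885 ± 0.105 (SD, n = 3) in e.v. and 0.807 ± 0.133 (SD, n = 4) in WT (exact two-sided permutation test, p = 0.486), and the same score for HIF2 (EPAS1) was 0.244 ± 0.0471 (SD, n = 3) and 0.220 ± 0.0614 (SD, n = 4) (exact p = 0.571). The smallest p that the 35 ways of splitting 7 libraries allow is 0.0286. Of 38 tested HIF1 targets outside glycolysis, 2 were lower in e.v. and 0 higher, with a median log2 fold change of -0.56 and 34 values below 0, against 0.467% lower and 6511 of 12849 values below 0 over all tested genes. HILPDA, a lipid droplet protein, measured 19.0, 12.5 and 15.6 CPM in e.v. and 53.2, 34.9, 29.6 and 42.3 CPM in WT (-1.35 ± 0.31, adjusted p = 0.0244), and EFNA1, an ephrin ligand, 39.8, 48.5 and 56.5 CPM in e.v. and 145, 61.7, 128 and 84.2 CPM in WT (-1.12 ± 0.26, adjusted p = 0.0284). Of 25 tested glucose transport and glycolysis genes, 2 were lower and 0 higher, with a median of -0.50 and 24 values below 0. They were ALDOC, an aldolase, at 12.4, 9.17 and 13.1 CPM in e.v. and 69.2, 22.1, 30.9 and 35.7 CPM in WT (-1.77 ± 0.37, adjusted p = 0.0157), and ENO2, an enolase, at 2.55, 2.83 and 3.85 CPM in e.v. and 32.9, 8.38, 15.7 and 13.5 CPM in WT (-2.50 ± 0.52, adjusted p = 0.0149). In each of these 4 genes WT library 5 was the highest.

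WT library 5 carried much of this difference. The summed level of the 44 HIF1 targets was 5572 CPM there, 2313 to 3561 CPM in the other WT libraries and 2357 to 2715 CPM in e.v., so that WT library 8 lay below e.v. Without WT library 5, 0 HIF1 targets and 0 glycolysis genes were called, and the medians were -0.20 and -0.33. None was called without e.v. library 23, 26 or 32 either, with medians from -0.62 to -0.43. The summed level of the glycolysis list was 7308 to 8637 CPM in e.v. and 9665 to 14455 CPM in WT, without overlap. PGK1, a glycolytic HIF1 target, measured 565, 470.4 and 559 CPM in e.v. and 1137, 626, 694 and 861 CPM in WT (log2 fold change -0.64 ± 0.26 SE, adjusted p = 0.329), and EGLN3 stayed under 1.5 CPM in all 7 libraries (-1.58 ± 0.62, adjusted p = 0.291). IL18 measured 12.8, 12.8 and 14.2 CPM in e.v. and 9.30, 7.12, 4.44 and 6.56 CPM in WT. The groups did not overlap, but the difference did not pass over all genes (0.95 ± 0.30, adjusted p = 0.136). NRP2, a co-receptor for VEGF, and CPT1A, the gatekeeper of fatty acid oxidation, had log2 fold changes of -0.34 ± 0.24 SE and -0.88 ± 0.30 SE (adjusted p = 0.675 and 0.197).

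**Figure D3:**
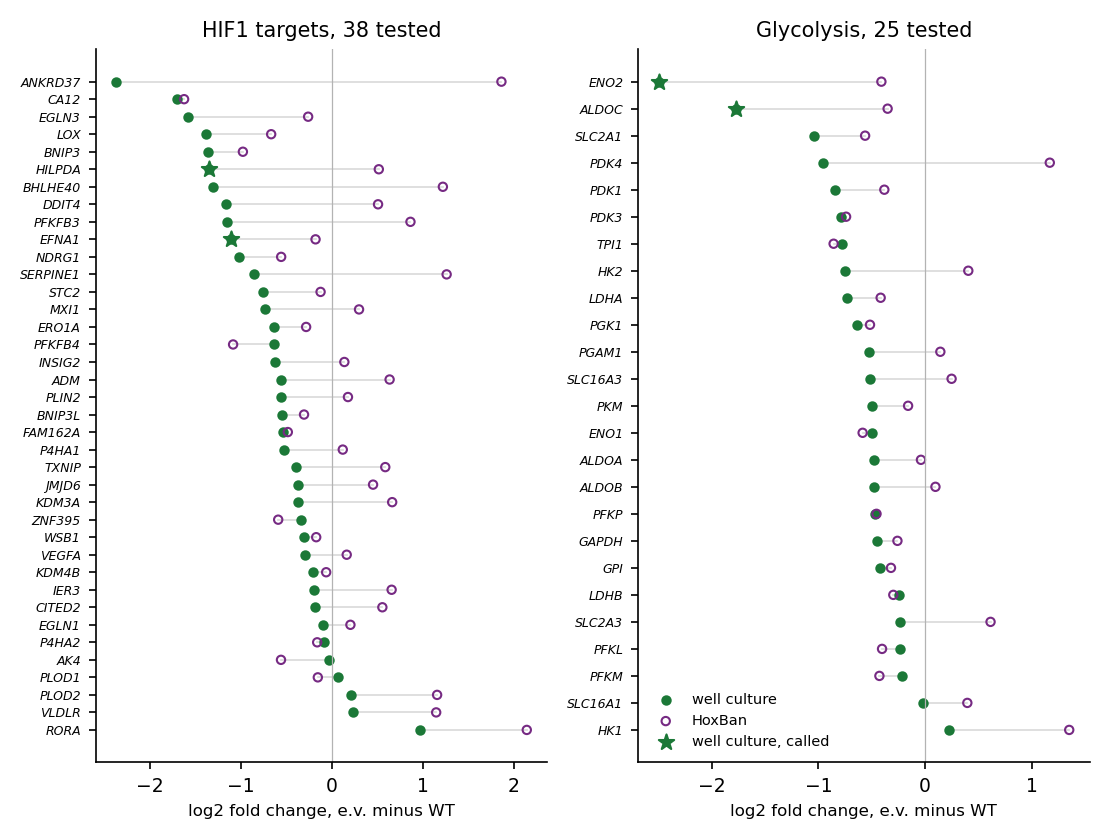
Log2 fold change of e.v. minus WT for the 38 tested HIF1 targets outside glycolysis (left) and the 25 tested glycolysis genes (right); filled points are well culture, open points HoxBan, and stars the 4 genes called in well culture. In well culture 34 of 38 and 24 of 25 values lie below 0, and the HoxBan values have medians of 0.15 and -0.32.

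Most of the genes called in wells were also called between the lines in HoxBan, in 12 other libraries. Those libraries entered the same fit, where they contributed to the estimate of the spread and the filter but not to the fold change in wells, and with only the groups compared in the fit 86 of the 104 higher and 40 of the 60 lower calls were kept. In the fit without the HIF1A-null libraries, 59 and 30 of these calls were kept. That fit called 8 interferon-stimulated genes, 2 glycolysis genes, 0 HIF1 targets outside glycolysis and 0 immediate early genes in wells. Of the 104 genes higher in wells, 104 had the same sign and 95 (91.3%) were called higher in HoxBan, where 782 of 12849 genes (6.09%) were. These 95 were 12.1% of the genes called higher in HoxBan. Of the 60 genes lower in wells, 54 had the same sign and 38 (63.3%) were called lower in HoxBan, where 629 (4.9%) were, and they were 6.04% of those. Over all tested genes 65.8% had the same sign in both cultures. None of the 164 was called in the opposite direction. Interferon-stimulated genes had 25 members higher and 0 lower in HoxBan, with a median log2 fold change of 1.22, and each of the 16 called in wells was among them. FADS2 fell by 2.99 and INSIG1 by 1.71 on the log2 scale (adjusted p = 3.01e-13 and 3.78e-06). IL18, below the threshold in wells, had a log2 fold change of 1.40 there (adjusted p = 0.000166), with 17.7 to 34.7 CPM in the 6 e.v. libraries and 6.09 to 17.2 CPM in the 6 WT libraries.

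**Figure D4:**
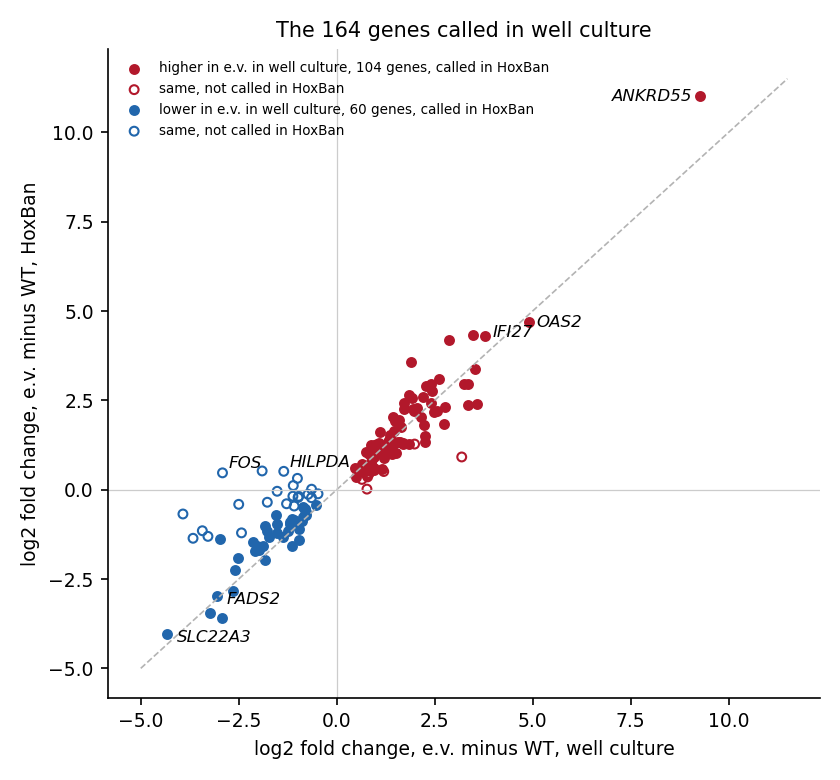
Log2 fold change of e.v. minus WT in well culture (x axis) and in HoxBan (y axis) for the 164 genes called in well culture; filled points were also called in HoxBan and open points were not, and the dashed line marks equal values. Of the higher genes 95 of 104 are filled and of the lower genes 38 of 60, with FOS and HILPDA above 0 in HoxBan.

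The difference between the cultures was itself tested, and 0 of 12849 genes passed with edgeR (725, or 5.64%, at an unadjusted p under 0.05), while DESeq2 called 11. FOS had a log2 fold change of -2.91 in wells and 0.47 in HoxBan (adjusted p of the difference 0.118), and HILPDA -1.35 and 0.51 (adjusted p = 0.118). ANKRD37, a HIF1 target named after its values were seen, had -2.38 and 1.86 (adjusted p = 0.118). Of the 38 HIF1 targets, 33 had a lower value in wells than in HoxBan and 13 had an unadjusted p of the difference under 0.05. Over all tested genes 6063 of 12849 had a lower value in wells. HIF1 targets were not alone in this. A lower value in wells was also found in 21 of 24 immediate early genes (6 under 0.05). The same held for 21 of 24 genes of the integrated stress and unfolded protein responses (9 under 0.05). Of 36 interferon-stimulated genes, 23 had a lower value in wells and 0 were under 0.05.

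The genes that were lower in e.v. were not spread evenly over the genome. Chromosome 7 held 11 of the 60 (and 1 of the 104 higher genes) and chromosome 13 held 7 (and 0). Together the 2 chromosomes carried 6.52% of the tested genes and 30% of those that were lower, and 2.15% of their tested genes were lower against 0.350% elsewhere. On chromosome 7, the median log2 fold change was -0.25 over 604 tested genes, 81.1% of which had a value below 0, and on chromosome 13 it was -0.20 over 234 genes, 74.8% below 0. The medians of the other chromosomes ran from -0.10 to 0.08. Relative to the WT mean, the median of chromosome 7 was -0.24, -0.20 and -0.25 on the log2 scale in e.v. libraries 23, 26 and 32 and within 0.01 of 0 in each WT library. For chromosome 13 it was -0.21, -0.14 and -0.21 in e.v. and -0.04 to 0.03 in WT. In both chromosomes all e.v. libraries lay below all WT libraries, as they also did on chromosomes 14 and 15 with smaller shifts (medians -0.05 and -0.10), and the groups did not overlap in either direction on 9 of 23 chromosomes. The shift ran along chromosome 7, with medians of -0.34 to -0.16 in its 8 windows of 20 Mb, and along chromosome 13, with medians of -0.29 to -0.14 in its 6 windows, the first of which held 5 tested genes. In HoxBan the medians were -0.26 and -0.23, while 4 of the 11 lower genes on chromosome 7 and 6 of the 7 on chromosome 13 were not called there, and HILPDA and NAMPT had values above 0. The cl.21 libraries in wells were at -0.13 to -0.11 on chromosome 7 and at 0.02 to 0.12 on chromosome 13.

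The 11 genes on chromosome 7, listed after their values were seen, were INSIG1, CLDN15, HILPDA, RHBDD2, ELAPOR2, IMPDH1, ZNF655, TMEM120A, CCZ1B, NAMPT and TMEM176A. Apart from ELAPOR2, their log2 fold changes ran from -0.64 (NAMPT, the rate-limiting enzyme of NAD salvage) to -2.14 (CLDN15), and ELAPOR2 held 2 counts in e.v. and 33 in WT (ratio of WT to e.v. 12.9, exact 95% interval 3.29 to 110.7). CCZ1B has a near-identical copy, so that its counts are uncertain. The 7 on chromosome 13 were DZIP1, RASA3, ANKRD10, PDX1, ARL11, STK24 and NDFIP2, at -0.48 (NDFIP2) to -2.52 (DZIP1) apart from ARL11, which held 2 counts in e.v. and 30 in WT (ratio 11.7, exact 95% interval 2.97 to 101). CNTNAP2, a neurexin family protein, was the 1 gene of chromosome 7 that rose, at 134, 126 and 134 CPM in e.v. and 96.9, 96.1, 80.7 and 86.9 CPM in WT (log2 fold change 0.54 ± 0.13 SE, adjusted p = 0.0337). DNA copy number was not measured in these data.

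**Figure D5:**
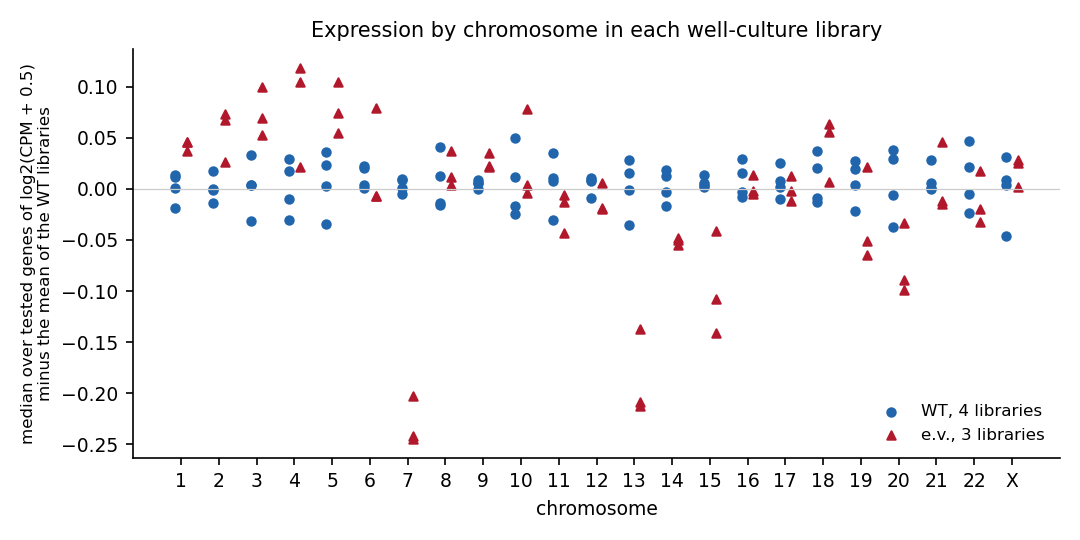
Median over the tested genes of each chromosome of log2(CPM + 0.5) minus the mean of the 4 WT libraries, for each well-culture library; triangles are the 3 e.v. libraries and circles the 4 WT libraries. The e.v. libraries lie between -0.25 and -0.20 on chromosome 7 and between -0.21 and -0.14 on chromosome 13, below the WT libraries of both.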

How the data were processed

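QuantSeq 3' libraries were sequenced on a NextSeq500, and the authors deposited 1 table of raw counts per Ensembl gene for 32 libraries (GRCh38 per the submitters' notes). The aligner, counter, annotation and strand setting were not given in the sources used here, and reads of a gene and its antisense neighbour cannot be told apart. Each library was 1 column, matched by its labels, and 0 columns were unused. Counts were scaled by TMM factors and fitted with the quasi-likelihood test of edgeR 4.0.16 (R 4.3.3) over 28 libraries in 9 groups (12849 genes after edgeR's filter on low counts, 19 residual degrees of freedom), with Benjamini-Hochberg adjustment and a threshold of 0.05. SEs were approximated as the absolute log2 fold change over the square root of F. The study's methods name edgeR, and its exact test and DESeq2 1.42.0 were run as alternatives, beside other scalings, no filter and leaving out libraries. On simulated data for the comparison in wells (200 changed of 12849 genes) the fit recovered 62% of 2-fold and 92% of 4-fold changes, with 6 of 160 calls false. Intervals cover counting error only. Named genes were the 12 per direction with the smallest adjusted p (called, mean of at least 5 CPM in the higher group, no overlap), up to 6 per direction with 0 to 3 counts in one group and at least 60 in the other, up to 4 members per gene list (33 lists, called members first), and 6 genes the study discusses. The comparison and the lists were chosen with earlier results of these data known. Replicate libraries of a group differed by more than counting noise in every pair, so that none was merged. The result of 1 listed gene is not reported here.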

Additional observations from a re-analysis of the deposited data

Results flagged for a closer look

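In 6 of 86 values examined, 1 of the 4 WT libraries in wells lay apart from the other 3 by Dixon's 95% criterion, which chance meets in about 1 group in 20. The share of mitochondrial counts was 14.1% in WT library 12 and 4.94% to 6.30% in the others, and EPCAM was 1514 CPM in WT library 12 and 1273 to 1291 CPM in the others. In WT library 5, OAS2 was 0.186 CPM, a single count against 0 in the others, and PLSCR1 was 55.3 CPM against 44.0 to 45.2 CPM. In WT library 8, HLA-C was 53.8 CPM against 72.0 to 75.7 CPM, and RASA3 was 0.632 CPM against 2.32 to 2.59 CPM. The criterion was not applied to the e.v. group of 3 libraries, where the share of mitochondrial counts was 17.1% in library 26 and 5.58% to 5.79% in libraries 23 and 32.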

How the results depend on the processing

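Of the 2601 values that 16 alternatives gave for the 164 genes called in wells (some genes did not pass the filter in some alternatives), 0 changed direction and 914 lost the call, and 20 genes passed under every alternative. Among named genes below the threshold in both fits, 98 values changed sign. Genes higher and lower in wells numbered 324 and 246 with edgeR's exact test on the groups compared, 220 and 189 with no filter on low counts, 62 and 33 without the HIF1A-null libraries, 15 and 9 without e.v. library 26 and WT library 12 (chosen after seeing the data, like the mitochondrial covariate), and 28 to 70 and 10 to 69 without each library in turn. DESeq2 called 102 lower. In HoxBan, 346 were higher and 191 lower with only the groups compared, 363 were lower with the exact test, and 463 to 1175 were higher and 357 to 1012 lower without each library in turn, the extremes without e.v. monoculture libraries 25 and 11. Genes differing between cultures numbered 11 with DESeq2, 63 with no filter and 0 to 14 without each library in turn. The median of chromosome 7 was -0.28 without e.v. library 26 and WT library 12 and -0.28 to -0.24 without each library in turn. The cause was not tested. Without each library in turn, the e.v. minus WT difference in HIF1 score was 0.0145 to 0.127, that in HIF2 score -0.000192 to 0.0534 and that in mitochondrial share -1.91 to 4.03 percentage points. No paired analysis was possible because each library number belongs to 1 library and no 2 groups share one. With 3 libraries against 4, the fit recovered 62% of 2-fold changes in simulated data. IL18 was below the threshold in wells (log2 fold change 0.95, adjusted p = 0.136 by the quasi-likelihood test), and the reason was not tested.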
